A study of Mus musculus with 12 samples.

Results

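Immediate early genes, 10 in number, were followed across all libraries: 3 genes of the NR4A family (Nr4a1, Nr4a2 and Nr4a3), 3 of the EGR family (Egr1, Egr2 and Egr3) and 4 of the AP-1 family (Fos, Fosb, Jun and Junb). They were chosen by gene symbol, and the 10 rows found among the 56980 genes of the counts table all passed the filter on low counts, as did 20411 genes in all. Messenger RNA had been sequenced from CD8+ T cells of tumours in wild-type C57BL/6J mice. The 4 groups of 3 libraries were asGM1-positive and asGM1-negative cells of Flt3L Panc02 tumours, and asGM1-positive and asGM1-negative cells of Panc02 tumours. Panc02 is a mouse pancreatic cancer cell line, here with or without added Flt3L, a growth factor for dendritic cells, and asGM1 (asialo-GM1) is a glycosphingolipid of the cell surface. All groups were sorted as DAPI-, CD45.2+ and CD8+, a gate without an antigen receptor marker in the labels. The labels give neither the age of the mice, nor the time of tumour growth, nor whether replicates came from separate mice, so the p-values measure the spread between these samples only.

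Immediate early genes are transcribed within minutes of a stimulus, without new protein synthesis. In T cells the antigen receptor switches them on through ERK kinases and calcium. FOS proteins pair with JUN proteins to form AP-1, which acts with NFAT in activation. EGR proteins are zinc finger factors, and EGR2 and EGR3 restrain T cell activation. NR4A proteins are orphan nuclear receptors, induced by antigen receptor signals and linked to tolerance and exhaustion. Tissue digestion and sorting also induce several of these genes.

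Expression is given as CPM (counts scaled to a fixed library size) on TMM-scaled library sizes. CPM is not corrected for gene length, so a level is compared between libraries for 1 gene and not between genes. Library totals lay between 98663008 and 102896605 counts. Rank correlations across genes were 0.973 to 0.983 within groups and 0.942 to 0.978 between groups. Cd8a averaged 2385, 1870, 1787 and 2077 CPM in asGM1-positive and asGM1-negative cells of Flt3L Panc02 tumours and asGM1-positive and asGM1-negative cells of Panc02 tumours, in that order.

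**Figure D1:**
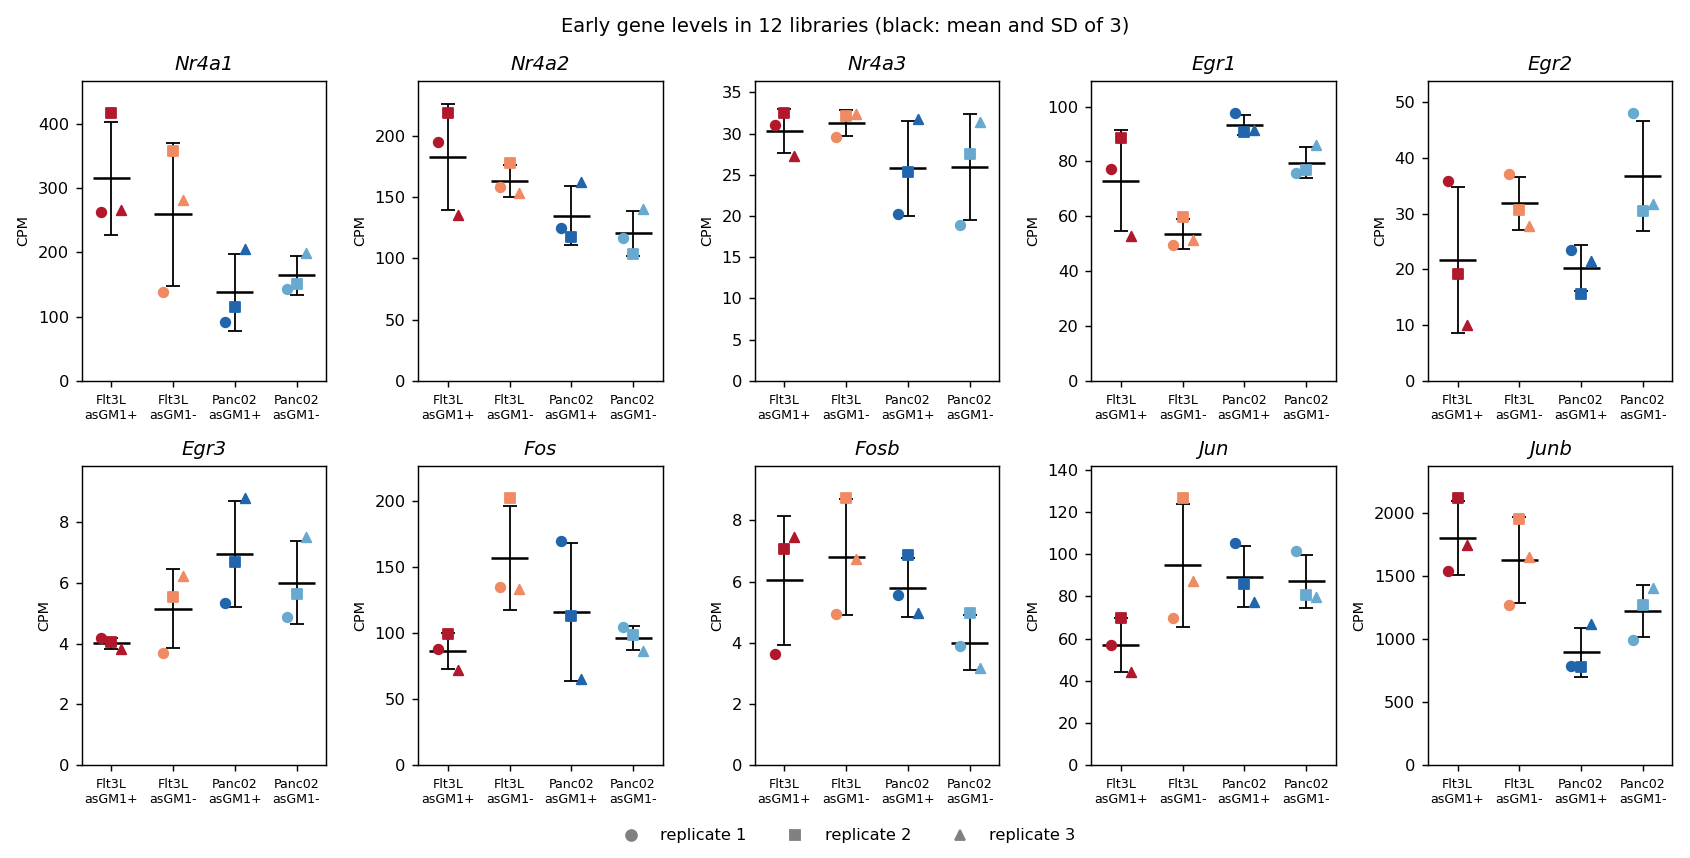
CPM of each of the 10 early genes (vertical axes, each starting at 0) in the 12 libraries, with black lines for the mean and SD of 3 libraries. Junb lay between 1543 and 2120 CPM in asGM1-positive cells of Flt3L Panc02 tumours, above the 781 to 1118 CPM of asGM1-positive cells of Panc02 tumours.

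Of the 10 genes, only Junb in asGM1-positive cells was called at an adjusted p under 0.05 by edgeR's quasi-likelihood test, in any of the 4 comparisons or their interaction. Flt3L Panc02 tumours were compared with Panc02 tumours to see the effect of Flt3L expression inside the tumour. In asGM1-positive cells, Junb was called higher and the other 9 genes were not called, where 6.25% of all genes tested were called. In asGM1-negative cells 0 of 10 were called, where 3.7% of all genes were. The gates were compared to ask what distinguishes cells that carry asGM1. There, 0 of 10 genes were called in Flt3L Panc02 tumours, where 8.59% of all genes were called, and 0 of 10 in Panc02 tumours, where 0.892% were. Unadjusted p-values under 0.05 were found for 6 and 4 of the 10 genes between tumour types in asGM1-positive and asGM1-negative cells, against 24.4% and 20.3% of all genes. Between gates there were 3 in Flt3L Panc02 and 2 in Panc02 tumours, against 25.4% and 9.99% of all genes. DESeq2 called 4 and 1 of the 10 between tumour types in asGM1-positive and asGM1-negative cells, and 2 and 0 between gates in Flt3L Panc02 and Panc02 tumours. The main edgeR fit left out the replicate number. With that number as a block, edgeR too called 2 and 0 of the 10 between gates in Flt3L Panc02 and Panc02 tumours.

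**Figure D2:**
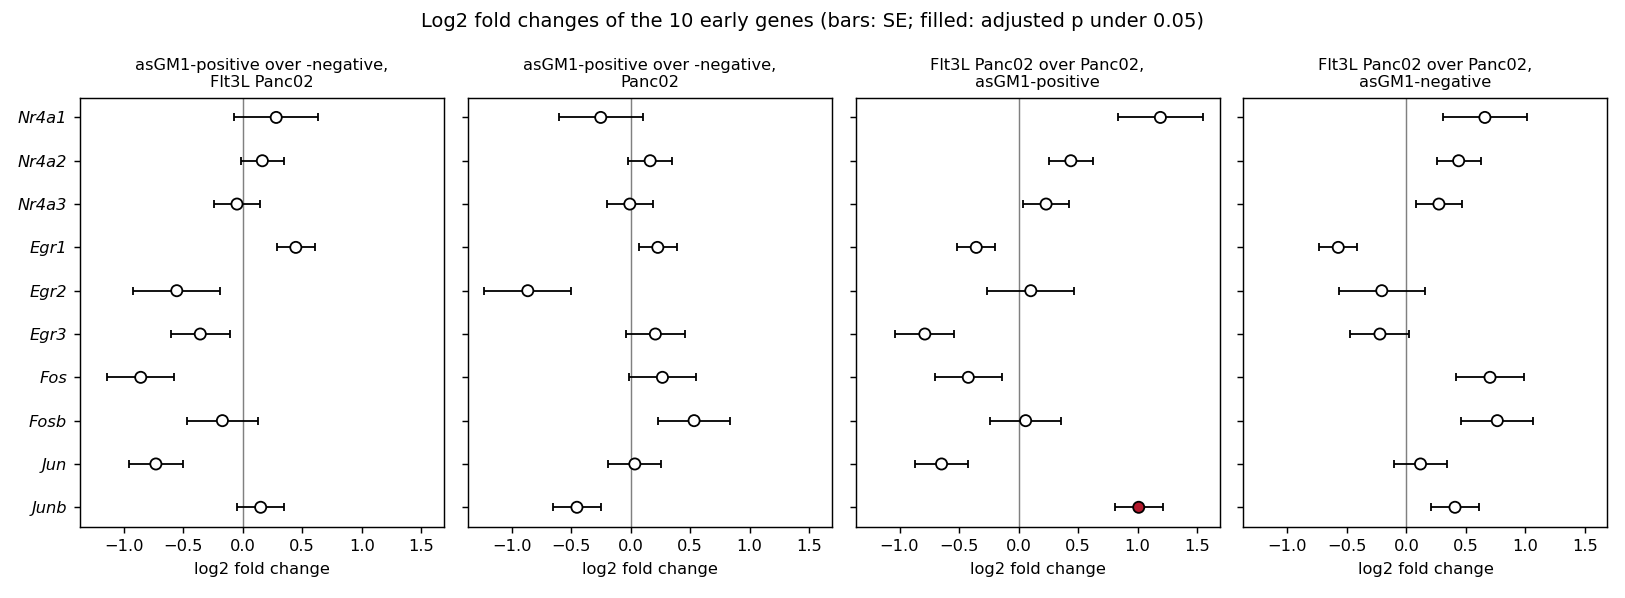
Log2 fold changes (horizontal axis) of the 10 genes in the 4 comparisons, with bars of 1 SE; filled points had an adjusted p under 0.05. Junb between tumour types in asGM1-positive cells, at 1.01, is the only filled point.

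Junb encodes an AP-1 subunit of the JUN group. In asGM1-positive cells it stood at 1543, 2120 and 1745 CPM in libraries 1, 2 and 3 of Flt3L Panc02 tumours. In Panc02 tumours the same gate held 785, 781 and 1118 CPM, so the groups did not overlap. The means were 1803 ± 293 CPM in Flt3L Panc02 and 895 ± 194 CPM in Panc02 tumours (SD, n = 3 each), and the log2 fold change of 1.01 ± 0.20 (SE) had an adjusted p of 0.018 by edgeR. Of all genes, 30.7% also had groups that did not overlap in that comparison. The call ended without replicate 2 (adjusted p = 0.0771) or 3 (0.0579) of Flt3L Panc02 tumours, without replicate 1 (0.0731) or 2 (0.0781) of Panc02 tumours, and without both Panc02 libraries numbered 1 (0.0653). It also ended in a fit to these 6 libraries alone (adjusted p = 0.0543), with the log2 fold change between 0.88 and 1.22 over all settings tried. T cell identity genes were also higher in this comparison, with 5 of 11 called and 0 lower, and their part in Junb was not tested.

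In asGM1-negative cells Junb stood at 1272, 1952 and 1648 CPM in Flt3L Panc02 tumours, against 996.2, 1273 and 1401 CPM in Panc02 tumours. These groups overlapped, and the log2 fold change of 0.41 ± 0.20 was not called (adjusted p = 0.282 by edgeR). Between gates, Junb was higher in asGM1-positive cells at all 3 replicate numbers of Flt3L Panc02 tumours and lower at all 3 of Panc02 tumours. Same-numbered libraries of the gates deviated together across genes in Panc02 tumours (r = 0.365 to 0.401). They did not all do so in Flt3L Panc02 tumours (-0.05 to 0.57). Agreement by number in Flt3L Panc02 tumours, here and for genes below, is thus not shown to be agreement of pairs. Neither gate difference was called by edgeR, with log2 fold changes of 0.15 ± 0.20 and -0.45 ± 0.20 (adjusted p = 0.687 and 0.481). Limma-voom called the gate difference of Junb in Panc02 tumours (adjusted p = 0.0435). The difference of the 2 gate effects, the interaction, was 0.60 ± 0.28 and was not called by edgeR (adjusted p = 0.349). For the interaction 0 of the 10 genes were called, where 0.367% of all genes were.

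Nr4a1 encodes NUR77, whose transcription is widely used as a reporter of antigen receptor signals. It stood at 263.1, 416.9 and 265.9 CPM in libraries 1, 2 and 3 of asGM1-positive cells of Flt3L Panc02 tumours, against 92.3, 115.8 and 206 CPM in that gate of Panc02 tumours. All 3 libraries of Flt3L Panc02 tumours were above all 3 of Panc02 tumours. The log2 fold change of 1.19 ± 0.36 (SE) had an adjusted p of 0.0696 by edgeR, with a 95% interval of the fold from 1.33 to 3.93. DESeq2 and limma-voom called it (adjusted p = 0.00736 and 0.00676), as did edgeR without replicate 3 of the Panc02 libraries (0.0203). The asGM1-negative cells held 138.7, 357.7 and 282 CPM in Flt3L Panc02 tumours and 142.6, 151.3 and 199 CPM in Panc02 tumours, and replicate 1 of Flt3L Panc02 tumours lay below all 3 Panc02 libraries. That log2 fold change was 0.66 ± 0.35 (adjusted p = 0.332 by edgeR). Between gates it was 0.28 ± 0.35 in Flt3L Panc02 and -0.25 ± 0.35 in Panc02 tumours, with adjusted p-values of 0.669 and 0.927.

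Nr4a2 encodes NURR1, a close relative of NUR77. In asGM1-positive cells it stood at 195.2, 218.7 and 135.2 CPM in Flt3L Panc02 tumours and at 124.8, 117.5 and 162.6 CPM in Panc02 tumours, which overlapped at replicate 3. In asGM1-negative cells it stood at 158.6, 177.7 and 153.5 CPM in Flt3L Panc02 tumours, all above the 116.9, 103.7 and 140.6 CPM of Panc02 tumours. Both log2 fold changes were 0.44 ± 0.18, with adjusted p-values of 0.168 and 0.206 by edgeR. The Nr4a2 difference in asGM1-positive cells was called in 1 of 15 other settings, and that in asGM1-negative cells in 0 of 15. Between gates the Nr4a2 log2 fold change was 0.16 ± 0.18 in each tumour type. Nr4a3, which encodes NOR1, varied little in Flt3L Panc02 tumours, at 27.3 to 32.5 CPM over both gates, against 18.9 to 31.8 CPM in Panc02 tumours. Its log2 fold changes were 0.23 ± 0.19 in asGM1-positive and 0.27 ± 0.19 in asGM1-negative cells (adjusted p = 0.501 and 0.482 by edgeR). Between gates the Nr4a3 log2 fold changes were -0.05 ± 0.19 in Flt3L Panc02 and -0.01 ± 0.19 in Panc02 tumours. Their 95% intervals allowed folds of 0.722 to 1.3 and of 0.743 to 1.33, so smaller gate differences could not be seen at this spread.

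Egr1 encodes a zinc finger factor induced by ERK signalling. In asGM1-negative cells it stood at 49.5, 59.7 and 51.3 CPM in Flt3L Panc02 tumours, against 75.8, 76.9 and 86.2 CPM in Panc02 tumours. All 3 Flt3L Panc02 libraries were below all 3 Panc02 libraries, where 26.6% of all genes had groups that did not overlap. The log2 fold change of -0.57 ± 0.16 (SE) was not called by edgeR (adjusted p = 0.0728), while DESeq2, limma-voom and a fit restricted to those 6 libraries did call it (0.0138, 0.00908 and 0.0419). In asGM1-positive cells Egr1 stood at 77.4, 88.7 and 52.7 CPM in Flt3L Panc02 tumours and at 97.6, 90.6 and 91.6 CPM in Panc02 tumours, with a log2 fold change of -0.36 ± 0.16 (adjusted p = 0.2 by edgeR). Egr1 was higher in asGM1-positive than asGM1-negative cells at all 3 replicate numbers of each tumour type. Neither difference was called, at log2 fold changes of 0.45 ± 0.16 in Flt3L Panc02 and 0.23 ± 0.16 in Panc02 tumours (adjusted p = 0.112 and 0.736 by edgeR). Without replicate 3 of the asGM1-positive Flt3L Panc02 libraries the gate difference in those tumours was called (log2 fold change 0.64, adjusted p = 0.0128).

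Egr2 had the opposite sign between gates. It stood at 35.9, 19.2 and 9.97 CPM in asGM1-positive libraries and at 37.1, 30.7 and 27.8 CPM in asGM1-negative libraries of Flt3L Panc02 tumours. In Panc02 tumours it stood at 23.5, 15.6 and 21.5 CPM in asGM1-positive libraries, all below the 48.1, 30.5 and 31.7 CPM of asGM1-negative libraries. It was thus lower in asGM1-positive cells at each replicate number, by log2 fold changes of -0.55 ± 0.36 and -0.86 ± 0.37, and neither was called (adjusted p = 0.373 and 0.453 by edgeR). Fosb and Egr1 also had gate groups that did not overlap in Panc02 tumours, where 17.6% of all genes did. Between tumour types Egr2 differed by log2 fold changes of 0.10 ± 0.36 in asGM1-positive and -0.21 ± 0.36 in asGM1-negative cells. Egr3, which encodes a relative of EGR2, lay between 3.69 and 8.79 CPM. In asGM1-positive cells it stood at 4.18, 4.05 and 3.82 CPM in Flt3L Panc02 tumours, below the 5.35, 6.67 and 8.79 CPM of Panc02 tumours. The log2 fold change of -0.79 ± 0.25 had an adjusted p of 0.0812 by edgeR and of 0.0273 by DESeq2. The asGM1-negative groups overlapped, at 3.69, 5.51 and 6.23 CPM in Flt3L Panc02 tumours and 4.88, 5.63 and 7.5 CPM in Panc02 tumours, with a log2 fold change of -0.22 ± 0.25. Between gates Egr3 differed by -0.36 ± 0.25 in Flt3L Panc02 and 0.21 ± 0.25 in Panc02 tumours, neither called.

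Fos and Jun, which encode the partners of the classical AP-1 dimer, showed their widest gate difference in Flt3L Panc02 tumours. Fos stood at 88.1, 99.4 and 72.5 CPM in asGM1-positive libraries of those tumours, all below the 134.8, 202.6 and 133.5 CPM of asGM1-negative libraries. It was the 1 gene of the 10 whose gate groups did not overlap there, where 28.7% of all genes had groups that did not. Its log2 fold change was -0.86 ± 0.28 (SE) with an adjusted p of 0.0855 by edgeR, which did not pass, and 0.0252 by DESeq2. Jun stood at 57.1, 69.8 and 44.3 CPM in asGM1-positive libraries and at 69.7, 126.7 and 87.5 CPM in asGM1-negative libraries, lower at each replicate number. Its log2 fold change was -0.73 ± 0.22 with an adjusted p of 0.0681 by edgeR, 0.0195 by DESeq2 and 0.04 by limma-voom. Why the tools differ was not tested.

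In Panc02 tumours the gate differences of Fos and Jun were smaller than their SEs. Fos stood at 169.8, 113 and 65.6 CPM in asGM1-positive libraries and at 104.5, 98.6 and 86.3 CPM in asGM1-negative libraries 1, 2 and 3. The asGM1-positive libraries thus spanned the whole range of the asGM1-negative ones, and the log2 fold change was 0.27 ± 0.28 (adjusted p = 0.872 by edgeR). Without asGM1-positive replicate 1 it was -0.11. Jun was at 105.1, 85.8 and 77.2 CPM in asGM1-positive libraries and at 101.6, 80.4 and 79.6 CPM in asGM1-negative libraries, a log2 fold change of 0.04 ± 0.22. The interaction of gate and tumour type was -1.12 ± 0.40 for Fos and -0.77 ± 0.32 for Jun and was not called (adjusted p = 0.226 and 0.291 by edgeR).

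The macrophage and monocyte markers fell in the same order as Fos over the 3 asGM1-positive libraries of Panc02 tumours. Summed over 15 genes they stood at 5029, 3657 and 2352 CPM in asGM1-positive libraries 1, 2 and 3, against 2557, 2672 and 2289 CPM in asGM1-negative ones. The order over these asGM1-negative libraries was not that of Fos. In Flt3L Panc02 tumours the sums were 2071, 1939 and 2756 CPM in asGM1-positive libraries 1, 2 and 3. They were 2730, 1753 and 2228 CPM in asGM1-negative ones. In each gate of those tumours library 2 was highest in Fos and lowest in the sum. Ly6c2 is a gene of that list which T cells express too. It averaged 1319, 1532, 979.8 and 1057 CPM in asGM1-positive and asGM1-negative cells of Flt3L Panc02 and then of Panc02 tumours. Lyz2 averaged 172.3, 92.2, 451.5 and 217.6 CPM in that order. Ly6c2 thus made up most of the sums in Flt3L Panc02 tumours, whose means were 2255 and 2237 CPM in asGM1-positive and asGM1-negative cells. Their order over those libraries need not be that of the other markers. Of the 15 markers, 0 were called between gates in Panc02 tumours by edgeR, and 14 had a positive log2 fold change. Macrophages also express early genes, fewer cells of a type and less RNA per cell cannot be told apart in bulk samples, and the part of these cells in the Fos and Junb values was not tested.

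Between tumour types the Fos difference had opposite signs in the 2 gates, and neither was called. In asGM1-positive cells its log2 fold change was -0.42 ± 0.28 (SE), and in asGM1-negative cells, where the 3 Flt3L Panc02 libraries were all above the 3 Panc02 libraries, it was 0.70 ± 0.28 (adjusted p = 0.388 and 0.189 by edgeR). Jun was lower in every asGM1-positive library of Flt3L Panc02 tumours than in any of Panc02 tumours, by -0.65 ± 0.22, and differed by 0.12 ± 0.22 in asGM1-negative cells (adjusted p = 0.105 and 0.827 by edgeR). The Jun difference in asGM1-positive cells was called in 1 of 15 other settings. Fosb, which encodes a FOS relative with a more lasting splice form, lay between 3.17 and 8.74 CPM over the 12 libraries. Its asGM1-negative libraries held 4.96, 8.74 and 6.73 CPM in Flt3L Panc02 tumours and 3.9, 4.96 and 3.17 CPM in Panc02 tumours, a log2 fold change of 0.76 ± 0.30 (adjusted p = 0.18 by edgeR). In asGM1-positive cells Fosb held 3.62, 7.07 and 7.46 CPM in Flt3L Panc02 and 5.56, 6.86 and 4.98 CPM in Panc02 tumours, a log2 fold change of 0.06 ± 0.30. Between gates that of Fosb was -0.17 ± 0.30 in Flt3L Panc02 and 0.53 ± 0.30 in Panc02 tumours, neither called.

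The order of the group means differed between genes. For Nr4a1, Nr4a2 and Junb it was asGM1-positive then asGM1-negative cells of Flt3L Panc02 tumours, followed by the 2 Panc02 groups, and the ranges of neighbours in that order overlapped. Egr1 was highest in asGM1-positive cells of Panc02 tumours and lowest in asGM1-negative cells of Flt3L Panc02 tumours. Fos and Jun were highest in asGM1-negative and lowest in asGM1-positive cells of Flt3L Panc02 tumours.

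Over the 12 libraries, the pair of the 10 genes with the highest correlation was Nr4a1 and Junb, with a Pearson r of 0.94 and a Spearman rho of 0.93 between log2(CPM + 1) values. Leaving out the 2 libraries farthest from the median of Nr4a1 gave 0.89, and the deviations from the group means correlated at 0.92. Fos and Jun had an r of 0.72, a rho of 0.66, an r of 0.46 without the 2 libraries farthest in Fos, so that it rests in part on those 2, and 0.76 between deviations. Fos and Junb had an r of -0.06. Of 12 pairs within a family 4 had an r over 0.5, and of 33 pairs between families 3 did. These values describe 12 libraries in 4 groups, in which all genes share the library and its depth, and no p is given.

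**Figure D3:**
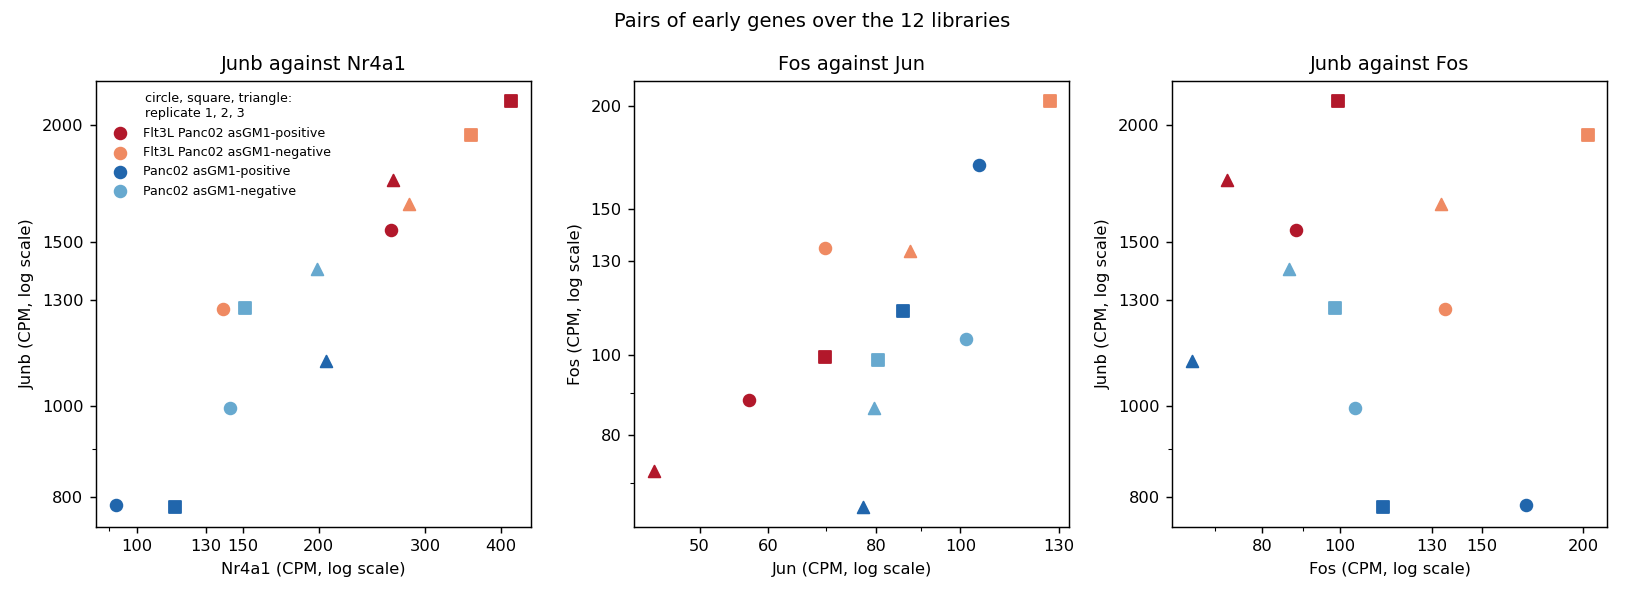
Junb against Nr4a1, Fos against Jun and Junb against Fos in CPM on log axes, 1 point a library, coloured by group with the marker for the replicate number. Libraries high in Nr4a1 are mostly high in Junb (r = 0.94), and Fos shows no such relation to Junb (r = -0.06).

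Promoter sequences of Nr4a1, Junb and Fos are shown because the levels of Nr4a1 and Junb went together over the libraries and those of Fos did not follow them. They come from RefSeq (GRCm38.p6), which is not the build of the counts table, and 8 of the 10 genes matched, all but Egr1 and Egr3. Each is the 250 bases before the gene's start, 5′ to 3′ on the gene's strand, with the letters TGACG, the core of the cyclic AMP response element, in capitals (CGTCA where they lie on the other strand). Nr4a1 lies at chr15:101266596-101266845 on the plus strand, Junb at chr8:84978749-84978998 on the minus strand and Fos at chr12:85473640-85473889 on the plus strand.
Nr4a1: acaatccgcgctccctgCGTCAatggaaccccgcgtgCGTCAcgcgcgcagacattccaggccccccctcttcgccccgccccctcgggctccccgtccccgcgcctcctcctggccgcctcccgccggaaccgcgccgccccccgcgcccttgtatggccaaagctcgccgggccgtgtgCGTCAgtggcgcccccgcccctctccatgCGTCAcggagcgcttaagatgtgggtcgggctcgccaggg
Junb: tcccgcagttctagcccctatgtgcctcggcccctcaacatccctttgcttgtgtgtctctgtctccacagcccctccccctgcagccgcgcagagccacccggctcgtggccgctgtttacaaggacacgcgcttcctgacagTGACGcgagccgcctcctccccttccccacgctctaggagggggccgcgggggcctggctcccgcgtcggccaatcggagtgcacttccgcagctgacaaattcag
Fos: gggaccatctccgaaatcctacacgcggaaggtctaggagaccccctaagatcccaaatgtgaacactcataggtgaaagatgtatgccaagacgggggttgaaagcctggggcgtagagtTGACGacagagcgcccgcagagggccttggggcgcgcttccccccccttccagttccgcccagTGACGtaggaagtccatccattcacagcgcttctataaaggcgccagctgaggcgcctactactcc

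Nr4a1 held 4 such matches within 250 bases of its start, Junb held 1 and Fos held 2. In windows of 300 bases, from 250 before to 50 after a start, TGACG on either strand was found in 7 of the 8 genes, all but Jun, and in 20.8% of 32817 windows. Egr2 has 5 listed starts, which gives it more chances of a match than the others. The full element TGACGTCA, which contains TGACG, was in 0 of 8 genes and 1.79% of windows. The CArG box, the serum response factor site, was in 1 of 8, Egr2, and 1.63% of windows. EGR sites (GCGGGGGCG or GCGTGGGCG) were in Nr4a1 and Fosb and in 3.47% of windows. AP-1 sites (TGACTCA or TGAGTCA) and the NR4A site AAAGGTCA were in 0 of 8, and in 5.2% and 1.51% of windows. The letters TATAAA were found in Nr4a2, Fos and Junb and in 13.6% of windows. A match describes the letters only, and these windows leave out more distant elements.

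The spread between replicates was wide for most of the 10 genes. The median coefficient of variation within groups was 35.4% for Nr4a1, against a median of 10% for 849 genes within 1.5-fold of its mean CPM. It was 23.5% for Egr2 (11.5% in 2589 such genes), 20.4% for Fos (9.73% in 1720) and 19% for Junb (11.8% in 81). Egr1, at 8.65% against 9.89%, was the exception, and 9 of the 10 genes were above their level-matched median. From the lowest to the highest library, Egr2 spanned 4.82-fold and Nr4a1 4.52-fold.

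For a search by pattern, 9232 genes averaging 5 CPM or more were compared. The 10 early genes, gene models, genes with no symbol, receptor and immunoglobulin segments, and ribosomal and mitochondrial genes were left out. Genes of like pattern were those with the highest Pearson r to the scaled mean of each family over the 12 libraries. For NR4A these were Ptpn22, a phosphatase that restrains antigen receptor signalling (r = 0.93), Vps37b (0.91), the AP-1 gene Fosl2 (0.91), Prdm10 (0.89), Ap5z1 (0.88) and Sla, an adaptor that restrains receptor signalling (0.88). For EGR they were Npat (0.95), Tmem43, Swap70, Strn3, Cdc25a and Smarca5 (0.91). For AP-1 they were Pcnx (0.93), Zfp652, Acot2, Maml2, Trib1 and Zfp710 (0.89), and for all 10 genes Kmt5b (0.95), Spty2d1, Ino80d, Clasrp, Mfap1b and Trim62 (0.88). The highest of 9232 values is high by selection, and each is a description over 12 libraries.

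Other immediate early genes were also compared between tumour types. Of 31 in asGM1-positive cells, 9 were higher in Flt3L Panc02 tumours, 1 was lower and 21 were not called, with a median log2 fold change of 0.64, against -0.03 over all genes. Their 9 called higher compare with 2.05% of all genes tested. Ier5l averaged 103.8 ± 39.4 CPM in Flt3L Panc02 and 32.5 ± 8.4 CPM in Panc02 tumours (SD, n = 3 each). Its log2 fold change was 1.68 ± 0.32 (SE, adjusted p = 0.0156 by edgeR). Btg1, an antiproliferative gene, rose by 0.85 ± 0.16 on the same scale, Klf2, a quiescence factor, by 1.39 ± 0.27, and Ppp1r15a, a stress response phosphatase subunit, by 0.93 ± 0.22. Ccn1, a matrix protein of stromal cells, fell to 6.71 ± 2.21 CPM in Flt3L Panc02 tumours, against 32.9 ± 15 CPM in Panc02 tumours. The summed tumour and stromal markers stood at 107.1, 111.1 and 88.7 CPM in those Flt3L Panc02 libraries and at 483.2, 358 and 114 CPM in the Panc02 ones. Of these markers 3 were called lower, while Epcam was called higher, by 1.06 ± 0.20 (adjusted p = 0.0148 by edgeR). The part of tumour and stromal cells in Ccn1 was not tested. The count of 10 called among the other immediate early genes fell to 0 in a fit to the 6 libraries alone. It fell to 2, 1, 1 and 2 without Panc02 replicate 1, Panc02 replicate 2, Flt3L Panc02 replicate 2 and Flt3L Panc02 replicate 3 of this gate.

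In asGM1-negative cells 4 of the 31 were higher in Flt3L Panc02 tumours, 0 lower and 27 not called, with a median log2 fold change of 0.37, against 0.00 over all genes and 1.86% of them called higher. Klf2 rose by a log2 fold change of 1.75 ± 0.27 (SE), Zfp36l1 by 0.93 ± 0.16, Zfp36 by 0.70 ± 0.16, both RNA-decay proteins of early transcripts, and Btg1 by 0.66 ± 0.16 (adjusted p = 0.00877 to 0.0446 by edgeR). The count was 11 by DESeq2, 13 by limma-voom and 11 with a stricter filter on low counts. Leaving out Panc02 replicates 1, 2 and 3 gave 2, 0 and 1, and leaving out Flt3L Panc02 replicates 1, 2 and 3 gave 8, 1 and 2. Markers of some other cells were higher in the same comparison, and those of others were not. Of plasmacytoid dendritic cell markers 4 of 10 were called higher, with a median log2 fold change of 2.07, and of conventional dendritic cell markers 3 of 9, with a median of 1.67. Of 7 CD4 and regulatory T cell markers, Cd4 was called higher, by 1.89 ± 0.18. Foxp3 and Il2ra were called lower, by -1.22 ± 0.29 and -0.97 ± 0.18. Macrophage and monocyte markers had a median of -1.13 (0 of 15 called) and neutrophil markers of -0.97 (0 of 7 called). The part of all these cells in the early gene values was not tested.

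Target genes of receptor signals were followed in the same cells. Of 25 in asGM1-positive cells, 6 were higher in Flt3L Panc02 than Panc02 tumours, 0 lower and 19 not called, where 2.05% of all genes were called higher. The median log2 fold change was 0.40, against -0.03 over all genes. Tox, a nuclear factor of chronically stimulated T cells, averaged 188.8 ± 45.7 CPM in Flt3L Panc02 and 74.2 ± 16.8 CPM in Panc02 tumours (SD, n = 3 each). Its log2 fold change was 1.35 ± 0.28 (SE, adjusted p = 0.0214 by edgeR). Its relative Tox2 rose by 2.20 ± 0.46, Dusp4, a phosphatase that restrains ERK signalling, by 1.20 ± 0.25, Crtam, an activation-induced adhesion receptor, by 0.90 ± 0.18 and Cd200, an inhibitory ligand, by 0.66 ± 0.15. The count of 6 fell to 2 and 0 without Panc02 replicates 1 and 2, to 0 and 1 without Flt3L Panc02 replicates 2 and 3, and to 0 in a fit to the 6 libraries alone. T cell identity genes were higher in the same comparison, 5 of 11 called and 0 lower. Their sums were 14760 to 19500 CPM in Flt3L Panc02 and 10880 to 12990 CPM in Panc02 tumours. Their part in these target genes, in Junb and in Nr4a1 was not tested. In asGM1-negative cells 1 of 25, Cd200, was called, higher by 0.83 ± 0.15, and this call ended in 4 of 15 other settings, 3 of them with 1 library left out.

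**Figure D4:**
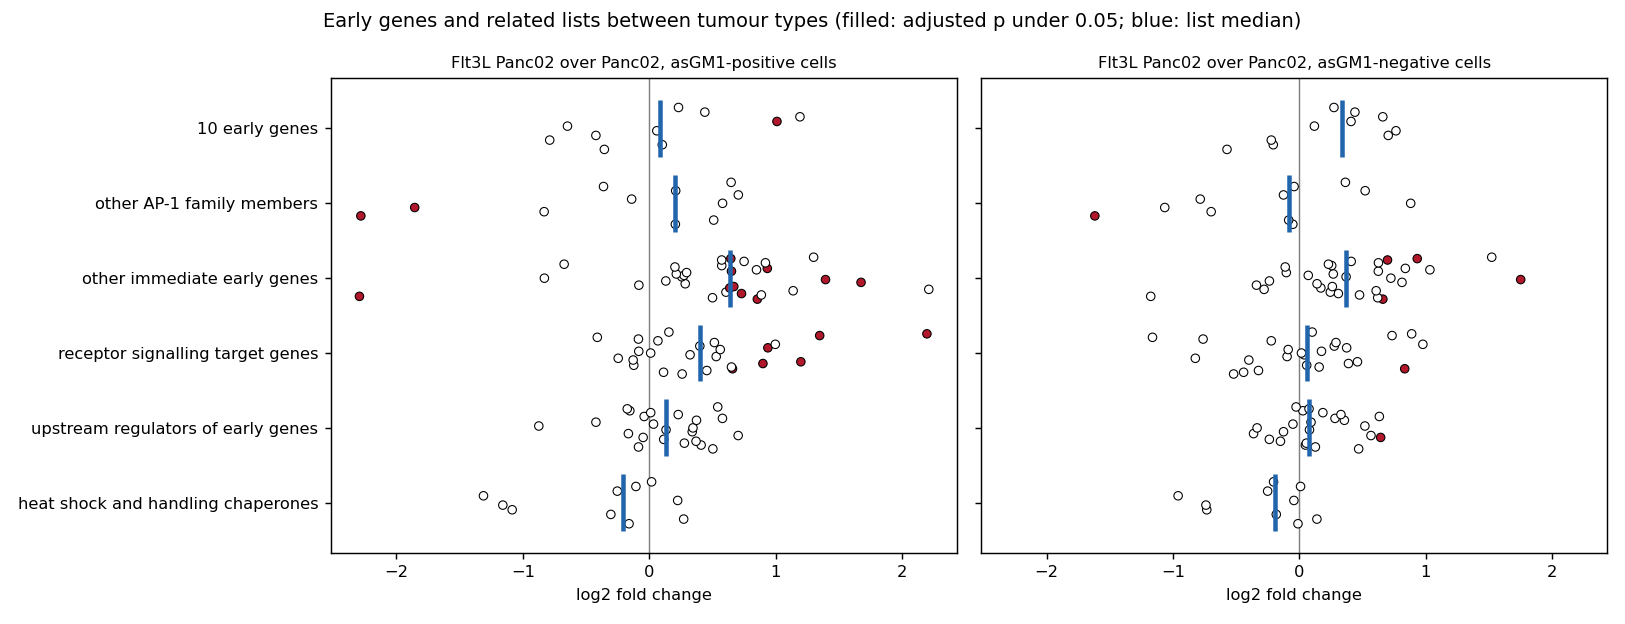
Log2 fold changes between tumour types (horizontal axis) of the 10 early genes and of 5 related lists, 1 point a gene, filled at an adjusted p under 0.05, with blue bars for list medians. The median of the other immediate early genes is 0.64 in asGM1-positive and 0.37 in asGM1-negative cells.

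Between gates in Flt3L Panc02 tumours 8.59% of all genes were called. Of the related lists, 3 of 31 other immediate early genes and 2 of 25 receptor target genes were called, close to that share. The upstream regulators gave 4 of 23 and the other AP-1 genes 0 of 11, and whether such small counts differ from that share was not tested. In Panc02 tumours, where 0.892% were, these lists gave 1, 1, 0 and 0. Il2, the growth factor gene that AP-1 and NFAT control together, averaged 2.18 ± 0.32 CPM in asGM1-positive cells of Flt3L Panc02 tumours and 6.79 ± 2.1 CPM in their asGM1-negative cells (SD, n = 3 each). Its log2 fold change was -1.64 ± 0.31 (SE, adjusted p = 0.00883 by edgeR). Cd69, an early surface marker of activation that also holds cells in tissue, averaged 112.3 ± 8.91 and 176.5 ± 16.3 CPM in those groups, a log2 fold change of -0.65 ± 0.12 (adjusted p = 0.00762 by edgeR). Those were the 2 called receptor target genes there. The list's median log2 fold change was 0.27, with 17 of 25 positive, against -0.01 over all genes. In Panc02 tumours Il2 alone was called, at -2.26 ± 0.32 (adjusted p = 0.00506 by edgeR). Klf2, the 1 of 31 other immediate early genes called in Panc02 tumours, was lower in asGM1-positive cells by -1.75 ± 0.28 there, and by -2.10 ± 0.28 in Flt3L Panc02 tumours, where Zfp36l1 and Klf4 were also called lower. The Zfp36l1 and Klf4 calls ended in 7 of 15 and 8 of 14 other settings, 4 and 5 of them with 1 library left out. The Klf2 call in Panc02 tumours ended without asGM1-positive replicate 2 and without both libraries numbered 1. Among 23 upstream regulators, Mapk3, the ERK1 gene, was higher (0.87 ± 0.18) and Elk4, a partner of serum response factor, lower (-0.65 ± 0.11) in asGM1-positive cells of Flt3L Panc02 tumours, with Map2k2 also higher and Mapk8 also lower. The Map2k2 and Mapk8 calls ended in 8 of 15 and 6 of 14 other settings, 5 and 4 of them with 1 library left out. None of these 23 was called between gates in Panc02 tumours by edgeR. Between tumour types Elk4 was the 1 called, higher by 0.64 ± 0.11 in asGM1-negative cells of Flt3L Panc02 tumours, and this call ended in 4 of 15 other settings, 3 of them with 1 library left out.

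Of 7 markers of CD4 and regulatory T cells, 4 were called lower in asGM1-positive cells of Flt3L Panc02 tumours and 3 in those of Panc02 tumours, and 0 were called higher. Of all genes, 8.59% and 0.892% were called there in either direction. Their sums overlapped between gates in Flt3L Panc02 tumours, at 388.3 to 637.5 CPM in asGM1-positive libraries against 403.3 to 524.8 CPM in asGM1-negative ones. In Panc02 tumours they were 261.1 to 377.6 CPM in asGM1-positive libraries and 390.3 to 553.3 CPM in asGM1-negative ones. Cd4 differed by log2 fold changes of -2.56 ± 0.18 in Flt3L Panc02 and -1.31 ± 0.17 in Panc02 tumours, Foxp3 by -1.41 ± 0.29 and -2.96 ± 0.31, and Cd40lg by -1.08 ± 0.21 and -1.20 ± 0.22. The 3 markers not called in Flt3L Panc02 tumours, Ctla4, Il2ra and Zbtb7b, had positive log2 fold changes. Ctla4 averaged 383 CPM in the asGM1-positive gate there, against 262.7 CPM in the other gate. It thus made up most of the sums in those tumours, whose means were 515.4 and 465 CPM in that order. Of the 7 markers, 1 had a positive log2 fold change between gates in Panc02 tumours. The part of CD4 and regulatory T cells in the Il2, Cd69 and Klf2 values was not tested.

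Other AP-1 genes gave few calls. Of 11, 0 were called between gates by edgeR in either tumour type. Batf2 fell to 2.17 ± 0.59 CPM in asGM1-positive cells of Flt3L Panc02 tumours, against 10.6 ± 4.25 CPM in Panc02 tumours, and Fosl1 to 0.84 ± 0.28 CPM, against 3.06 ± 1.67 CPM (SD, n = 3 each). Batf2 was also lower in asGM1-negative cells, by a log2 fold change of -1.62 ± 0.32 (SE), a call that ended in 5 of the 6 fits with 1 library left out. The Fosl1 groups overlapped, and its call ended in 7 of 14 other settings. The macrophage markers were lower in the same asGM1-positive comparison, 6 of 15 called, and their part in these 2 genes was not tested. Fosl2, Jund and Batf were not called, with log2 fold changes of 0.58 ± 0.22, 0.70 ± 0.30 and 0.51 ± 0.15 between tumour types in asGM1-positive cells (adjusted p = 0.136, 0.181 and 0.0691 by edgeR).

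Chaperone genes that respond to heat and handling were followed beside the early genes. None of 10 was called in any of the 5 comparisons by edgeR, where 0.367% to 8.59% of all genes were. Summed, they stood at 3455 to 3823 CPM in asGM1-positive libraries and 3081 to 3590 CPM in asGM1-negative cells of Flt3L Panc02 tumours, and at 3077 to 4024 and 2947 to 4037 CPM in those gates of Panc02 tumours. The 2 gates of Panc02 tumours thus overlapped over most of their range. Hspa8 made up most of these sums, at group means of 2206 to 2603 CPM, so they show little of the other chaperones. In asGM1-positive libraries of Panc02 tumours Hspa1a spanned 47.8 to 174.2 CPM and Hspa1b 66.7 to 205.2 CPM. In asGM1-negative ones they spanned 60 to 167.6 and 75.8 to 202.8 CPM. Plasmacytoid dendritic cell markers moved with the gates, at sums of 703.8 to 842.3 CPM in asGM1-positive libraries and 1529 to 1695 CPM in asGM1-negative libraries of Flt3L Panc02 tumours, and of 720 to 857 and 946 to 1075 CPM in Panc02 tumours. Irf8, which is also on the receptor target list, made up much of these sums, and Siglech, a defining marker, averaged 2.83 and 268.4 CPM in those Flt3L Panc02 groups and 1.65 and 51.2 CPM in the Panc02 groups. The part of these cells in the Fos, Jun and Egr2 values was not tested.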

How the data were processed

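Sequencing covered 12 libraries in 4 groups of 3, grouped by title. Kits named TruSeq mRNA and SMARTer Ultra low input appear beside TRIzol in the labels' protocols. Strand is not stated there, so reads of antisense transcripts could not be separated. The mm39 build, StringTie and HISAT2 are listed in the submitters' processing notes, with neither version nor annotation. The deposited values are expected counts, that is, estimated counts per gene, and were already whole numbers. Small values piled up at steps of about 2.71 counts (2.67 to 2.75 scored equally), taken as the worth of 1 fragment.

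The test was edgeR 4.0.16 (R 4.3.3), with TMM scaling, filterByExpr by group, 1 quasi-likelihood fit of all 12 libraries by group, Benjamini-Hochberg adjustment over 20411 genes and calls at an adjusted p under 0.05. SEs are the absolute log2 fold change divided by the square root of F. Alternatives were DESeq2 1.42.0 (size factors and test), limma 3.58.1 voom, other filters, fits to the compared libraries, a replicate block, counts divided by the fragment step, and leaving libraries out. The fits were tested on simulated counts. All 10 early genes were named, with up to 5 called genes of each related list per comparison by p, and 6 genes of like pattern per set. Fosl2, Jund and Batf and the individual marker genes were chosen for the text after their values were seen. Members and lists were chosen with earlier results of these data known. The alternatives for the related lists were added after seeing the data. Same-numbered libraries of both gates in Panc02 tumours deviated together (r = 0.365 to 0.401 across genes), which pairs them there by the rule that every pair exceeds 0.1. The gates of Flt3L Panc02 tumours (-0.05 to 0.57) did not meet it.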

Additional observations from a re-analysis of the deposited data

How the results depend on the processing

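Counts of all genes called moved with the tool and the libraries kept, and the cause was not tested. Between gates in Flt3L Panc02 tumours 1754 genes were called, against 3215 by DESeq2, 2805 by limma-voom, 1094 in a fit to the compared libraries alone and 768 to 1942 when 1 library was left out. In Panc02 tumours the gates gave 182, against 598, 831, 118 and 94 to 226, and 107 without both Panc02 libraries numbered 1. Between tumour types in asGM1-negative cells there were 756, against 2207 by DESeq2, 3536 by limma-voom, 390 with no filter, 481 without both libraries numbered 1 and 94 to 959 with 1 library left out. In asGM1-positive cells there were 1276, against 2979, 3120, 691, 402 and 215 to 1737, and 1 in the compared libraries alone. The interaction gave 75, against 862, 786, 40, 27 and 1 to 257, and 137 with a filter of 5 CPM in 3 libraries.

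Of the 10 early genes, 0 were called between gates in Flt3L Panc02 tumours, against 2 by DESeq2, 2 by limma-voom, 1 with the stricter filter, 1 without both libraries numbered 1 and 0 to 1 with 1 left out. The gates of Panc02 tumours gave 0, and 1 by limma-voom. Tumour types gave 0 in asGM1-negative cells, and 1 each by DESeq2, limma-voom and the compared libraries alone. In asGM1-positive cells they gave 1, against 4 by DESeq2, 4 by limma-voom, 0 in the compared libraries alone, 0 without both libraries numbered 1 and 0 to 2 with 1 left out.

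With the replicate number as a block, 2 of the 10 were called between gates in Flt3L Panc02 tumours and 2 between tumour types in asGM1-positive cells, where Junb had an adjusted p of 0.00735 by edgeR, and the interaction gave 204 genes. In Panc02 tumours, where the numbers pair the libraries, the block changed no call of the 10 and gave 248 genes. Same-numbered deviations correlated at -0.43 to -0.25 between tumour types in asGM1-negative cells and at -0.04 to 0.05 in asGM1-positive cells, so there the libraries share only a number.

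No early gene with a called difference changed sign. Log2 fold changes that did were, between gates in Panc02 tumours, Fos at -0.050 without both libraries numbered 1 and Nr4a3 at 0.0010 with the block. Between tumour types they were Egr2 at 0.033 in asGM1-negative cells without both libraries numbered 1, and in asGM1-positive cells Egr2 at -0.016 with the block and Fosb at -0.14 by limma-voom. In the interaction, Nr4a2 was at -0.073 with the stricter filter, -0.022 with the block, -0.011 with counts divided by the fragment step and -0.031 without both libraries numbered 1, and Nr4a3 at 0.065 by limma-voom. With 1 library left out, the gates of Panc02 tumours gave Egr3 -0.011 to 0.40, Fos -0.11 to 0.54, Jun -0.10 to 0.16, Nr4a2 -0.0023 to 0.29 and Nr4a3 -0.20 to 0.15. The gates of Flt3L Panc02 tumours gave Fosb -0.35 to 0.10, Nr4a1 -0.019 to 0.58 and Nr4a3 -0.10 to 0.025. Tumour types gave Egr2 -0.33 to 0.033 and Jun -0.15 to 0.30 in asGM1-negative cells, and Egr2 -0.47 to 0.47 and Fosb -0.10 to 0.32 in asGM1-positive cells. The interaction gave Egr2 -0.26 to 0.69, Nr4a2 -0.15 to 0.21 and Nr4a3 -0.20 to 0.16. The precision of all these values is limited by 3 libraries a group.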
